A study of Mus musculus with 6 samples.

Results

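The cells described here are cells of the fetal mouse intestine that are rich in transcripts of Col6a5, Col6a6, Wfdc1 and Lepr. They were chosen by the unique molecular identifiers (UMIs, each standing for 1 captured transcript) of these 4 genes. Among cells with at least 1000 detected genes and at most 5% mitochondrial UMIs, the summed UMIs of the 4 genes were divided by all UMIs of the cell. The top 5% of cells was then taken separately for barcodes ending in _1 (ending A) and in _2 (ending B), with at least 2 such UMIs in a cell. This gave 388 chosen cells among the 12688 that passed the filter and the 13127 in the matrix. Each ending carries 3 barcode suffixes, so the cells fall into sets A1, A2 and A3 and sets B1, B2 and B3, which held 154, 115, 19, 39, 38 and 23 chosen cells. The chosen cells of sets A1, A2, B1 and B2 were compared with the 8955 remaining cells of the same sets. The levels of the 4 genes selected the cells, so those levels and the differences set by them are descriptions.

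The tissue was small intestine of C57/BL6 embryos carrying Pdgfra-H2BGFP, a reporter in which the promoter of Pdgfra, a receptor of mesenchymal cells, drives a green fluorescent histone. All 6 samples carried this reporter, and replicate intestines were pooled: E13.5 had 4 replicates, E14.5 had 3, and the later ages (E15.5, E16.5, E18.5) had 2 apiece. One pair of groups came from E15.5 and E16.5, with 2 lanes of all live cells (without DAPI or Ter119) and 1 lane of cells enriched for CD31, CD45, Epcam or high Pdgfra-GFP signal, and the other pair came from E13.5, E14.5 and E18.5 with the same lanes. No label ties a barcode suffix to a sample, so the 6 samples form 1 pooled matrix here: ages, sorting gates and segments of the gut could not be assigned, there is no replicate, and no test of a difference was made.

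Sets A1 and A2 were the deepest, with medians of 12470.5 and 13964 UMIs in their remaining cells, against 4186 and 4115 in B1 and B2. In ending A the chosen cells were shallower than the remaining cells, with medians of 8561 UMIs in A1 and 9347 in A2, whereas in B1 and B2 they had medians of 4293 and 4664. The 15 pairs of sets shared 0 to 3 cell barcodes each and 22 in all, and no shared barcode was chosen in both of its sets. A doublet caller marked 65 cells, of which 0 were chosen; it marked 0.331% of the cells of ending A, too few to be taken to have worked there. In sets A1 and A2 little RNA of other tissues was seen: no gene of the marker lists for epithelium, endothelium, mesothelium, enteric neurons or immune cells reached the minimum of 20 CPM (CPM, UMIs of a gene per 1000000 UMIs of the cells). Of the glia and red blood cell lists 1 gene each did, Fabp7 at 2.83 and 3.57 CPM in the chosen cells of A1 and A2 against 18.3 and 21.8, and Hbb-y at 28.3 and 29.4 against 16.9 and 20.8.

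Collagen VI forms beaded microfilaments around cells, and its long chains differ in which alpha-3-like subunit they hold: Col6a4, Col6a5 and Col6a6 encode such alternatives to the alpha-3 chain. Lepr encodes the receptor for leptin, a hormone of fat tissue, which signals through JAK kinases and STAT factors and marks stromal cells of bone marrow. Wfdc1 encodes a small secreted protein with a whey acidic protein core, a fold known from protease inhibitors. Fibroblasts of the intestinal lamina propria lie under the epithelium and lay down matrix, hold blood and immune cells in place through chemokines and supply growth factors to the epithelium. In the RefSeq annotation of build GRCm38.p6, the release of mm10 used for positions here, Col6a6 (chr9:105689417-105828246), Col6a5 (chr9:105856070-105962463) and Col6a4 (chr9:105990318-106096828) follow each other with no other protein-coding gene between them in that table. They are related in sequence, so reads that fit more than 1 of them may be divided or lost, and their levels carry that uncertainty. Lepr lies at chr4:101717137-101815352 and Wfdc1 at chr8:119666365-119688020.

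In ending A the rule picked out cells with many rule transcripts. The chosen cells of A1 held a median of 15 UMIs of the 4 genes and those of A2 a median of 17, up to 61 in a cell, and 68.5% of all rule UMIs of ending A lay in its 288 chosen cells. In ending B the 100 chosen cells held a median of 2 UMIs, 63 of them held exactly 2, and only 3 held 5 or more. The cut on the summed rule genes lay at 1046 CPM in ending A and at 216 in ending B, where 249 of the 349 cells at or over the cut had fewer than 2 rule UMIs and were not taken. Just inside the cut of ending A the lowest chosen cell held 1046 CPM, and the highest cell outside held 1045. In ending B the lowest chosen cell held 233 CPM, and the highest cell outside with at least 2 rule UMIs held 214.

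Depth differed between the endings, so every cell was also thinned to 2000 UMIs. At this equal depth, 64 of 2468 cells of A1 and 40 of 2086 cells of A2 held 5 or more rule UMIs. Set A3 had 4 such cells of 1182, and sets B1, B2 and B3 had none among 2213, 2508 and 2190 cells. When the rule itself was applied to cells thinned to 4000 UMIs, ending A gave 326 cells with a median of 7 rule UMIs, 256 of them with 5 or more. Ending B gave 43 cells with a median of 2, none of them with 5 or more. The cells rich in these transcripts were therefore seen in sets A1 and A2 and in a few cells of A3, and the chosen cells of ending B were cells with a few UMIs of mostly 1 gene.

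**Figure D1:**
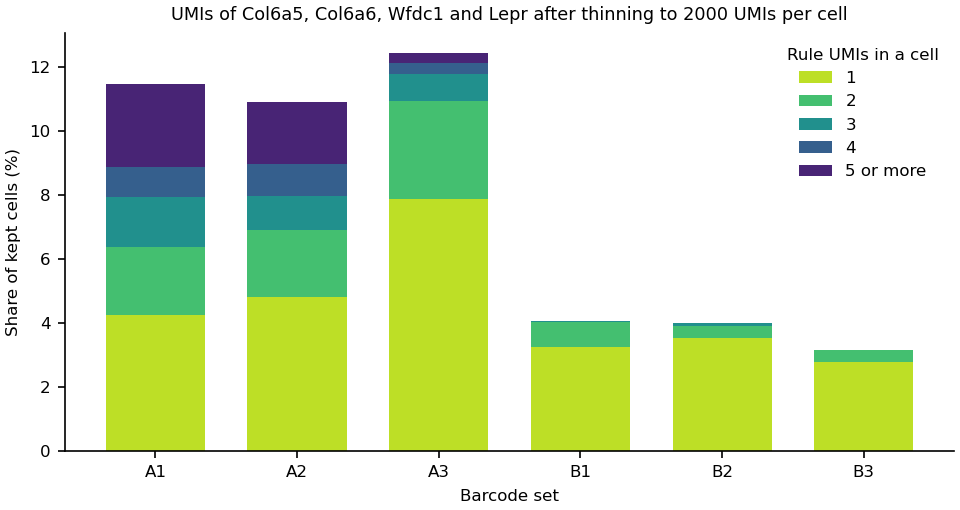
Share of kept cells (percent, vertical axis) that held 1, 2, 3, 4 or 5 or more UMIs of Col6a5, Col6a6, Wfdc1 and Lepr after every cell was thinned to 2000 UMIs, for the 6 barcode sets. The darkest segment (5 or more) reached 2.59% in A1 and 1.92% in A2, 0.338% in A3 and 0 in the 3 sets of ending B.

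Col6a5 carried most of the rule. Its level was 1824 in the chosen cells of A1, 1811 in A2, 472 in B1 and 383 in B2, against 20.6, 18.7, 9.83 and 8.96 in the remaining cells. Every chosen cell of ending A held a Col6a5 UMI, and 90.4% of the rule UMIs in these cells were of Col6a5. Lepr was at 99.7 CPM in A1 and 85.6 in A2 against 5.80 and 6.94 in the remaining cells, and no Lepr UMI was found in any chosen cell of A3, B1, B2 or B3. Wfdc1 was at 70.7 CPM in A1, 70.4 in A2, 17.4 in A3 and 16.2 in B2 (3 UMIs), and at 0 in B1 and B3. Col6a6 was scarce, at 41.7 CPM in A1, 24.1 in A2 and 0 in A3, and at 35.6 in B1 and 135 in B2. The order Col6a5, Lepr, Wfdc1, Col6a6 held in A1 and A2, while in B1, B2 and B3 Col6a6 was the second.

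Of the chosen cells, 76.0% in A1 and 70.4% in A2 held UMIs of at least 2 of the 4 genes, and 8 cells of ending A held all 4. In A3, 17 of 19 chosen cells held only Col6a5. In ending B, 88 of 100 held only 1 of the genes. These counts rest on the genes that chose the cells and only describe them. In A1 and A2 all 4 genes of the label were found in the chosen cells. The label does not hold in ending B, where Lepr was at 0 and Wfdc1 at 3 UMIs in all chosen cells, nor for Lepr in A3. A list of 8 mesenchymal genes, among them Col1a1, the main chain of type I collagen, summed to 13513 CPM in the chosen cells of A1 and 12837 in A2 against 7259 and 6730 in the remaining cells. In B1 and B2 it summed to 4119 and 4336 CPM against 6937 and 7384, and in B1 the red blood cell list, at 3642 CPM, lay close to it. The sum of the list was thus higher in the chosen cells of A1 and A2 and lower in those of B1 and B2. Of its 8 genes, 3 were over 2-fold higher in both A1 and A2, beside 3.89% of all genes, and 0 lower. Pdgfra, a member of the list, went the other way, at 117 and 87.4 CPM in A1 and A2 against 176 and 131.

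A rule gene can be read apart from its own counts only in cells chosen by the other 3. In A1 and A2 together, 265 cells chosen by Col6a5, Col6a6 and Wfdc1 held Lepr at 81.7 CPM and the other cells 6.90 CPM, which is a log2 ratio of 3.57 (95% interval 3.31 to 3.81; this and every interval below covers counting error only). Wfdc1 was at 66.7 against 2.00 CPM when left out (log2 ratio 5.06, 4.71 to 5.41). Col6a5 was at 973 against 56.2 CPM (log2 ratio 4.11, 4.04 to 4.19), and Col6a6 at 23.6 against 3.76 CPM (log2 ratio 2.65, 2.21 to 3.07). Each of the 4 genes was thus high in cells picked by the other 3, in A1 and in A2 alike. The 4 genes had been put together with earlier results of these data known, so these ratios are a description and no independent support. Where Col6a5 was left out, 47.7% of the cells picked were among the 269 chosen by all 4 genes; where another gene was left out, at least 97.0% were. The readings of Col6a6, Wfdc1 and Lepr therefore rest on nearly the same cells. Those were picked mostly by Col6a5, which made up 90.4% of the rule UMIs in the chosen cells of ending A. In B1 and B2 the left-out Lepr and Wfdc1 had no UMI in 78 and 75 chosen cells, and Col6a5 had 1 UMI in 11 cells.

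Co-detection at 2000 UMIs per cell followed the same lines in the 4554 cells of A1 and A2. The rule genes had been put together with earlier results of these data known, so these counts too are only a description. Of 55 cells with a Wfdc1 UMI, 46 also held Col6a5, where unrelated genes would give 5.10. Of 115 cells with a Lepr UMI, 63 also held Col6a5, against 10.7 for unrelated genes, and 9 cells held Lepr and Wfdc1, against 1.39. Col6a6 was found with Col6a5 in 19 of its 49 cells, against 4.54, but with Lepr in 2, against 1.24, and with Wfdc1 in 0, against 0.592, so no relation with these could be read at this depth. At equal depth, 95.5% (92.3 to 97.7) of the 269 chosen cells of A1 and A2 held Col6a5, 51 of them (95% interval of the share 14.5 to 24.2%) held Lepr and 14.5% (10.5 to 19.3) held Wfdc1. For the level of free RNA, the shares were compared with 226 cells of A1 and A2 rich in Saa1, Gpbar1 and Kcnd3, which were deeper (median 15587 UMIs against 8844). Among them 0 held Col6a5 or Wfdc1, which by the limit of 3 counts allows a share of up to 1.33%, and 1 held Lepr (0.442%). Without thinning, Lepr was found in 49.8% of the chosen cells and in 2.65% of those cells, and Wfdc1 in 38.7% and 0.442%. The chosen cells were picked by these genes, so their shares follow from the rule. The contrast with the 226 cells is therefore only a description.

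Clusters were made in each ending without the 4 rule genes, to see whether the chosen cells share the rest of their profile. In ending A, 85.8% (81.2 to 89.6) of the 288 chosen cells lay in 2 of 15 clusters, which held 10.0% of all cells. The first of them held 409 cells, 184 of them chosen. In ending B, 39.0% (29.4 to 49.3) of the 100 chosen cells lay in their 2 leading clusters of 11, which held 20.6% of the cells, and the rest were spread over 7 others. In each ending the 2 clusters were picked because they held the most chosen cells. A share above that of all cells is therefore partly built in, and the interval does not cover this choice. The chosen cells did not make up the whole of the leading cluster of ending A. Among cells of A1 and A2 in it, the 217 that were not chosen had Adamdec1 at 3678 CPM against 3908 in the 183 chosen cells and 641 in other cells outside the cluster. Cxcl16 was at 178 CPM in the cells not chosen and 157 in the chosen cells, against 5.24 outside. Ccl11 was more unequal, at 381 CPM in the cells not chosen, 1015 in the chosen cells and 40.5 outside.

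**Figure D2:**
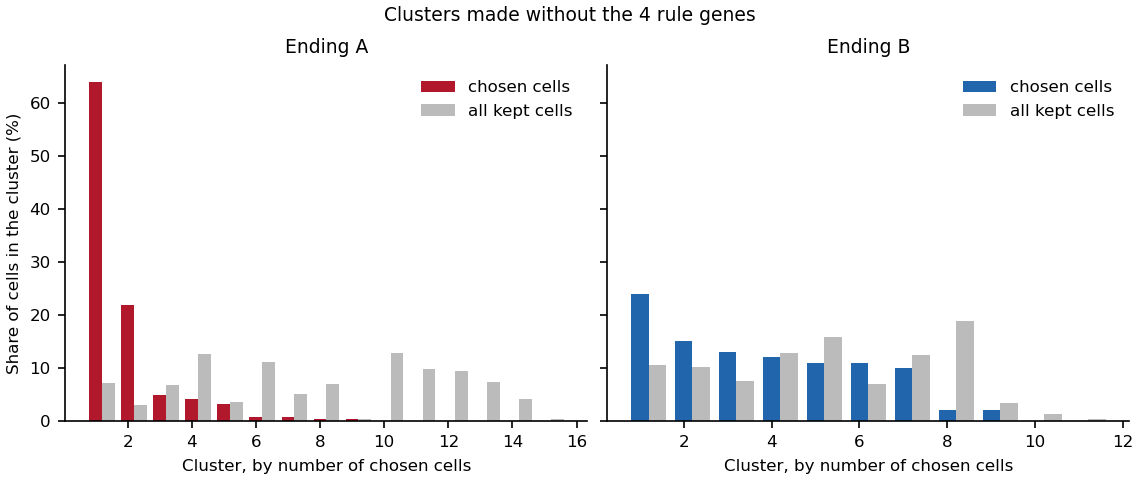
Share of chosen cells (coloured bars) and of all kept cells (grey bars) in each cluster, in percent, with clusters ordered by their number of chosen cells, for endings A and B. In ending A the first cluster held 63.9% of the chosen cells and 7.12% of all cells; in ending B it held 24.0% and 10.5%.

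Across all genes, few differences were shared by the endings. Of 6451 genes at 20 CPM or more and counted in both endings, 7 (0.109%) were at least 2-fold higher in the chosen cells in each of the 4 sets and 9 (0.14%) were at least 2-fold lower in each. In A1 and A2, 277 of 7118 genes (3.89%) were at least 2-fold higher in both sets and 117 (1.64%) at least 2-fold lower, and in B1 and B2, 35 of 6087 genes (0.575%) were higher and 42 (0.69%) lower. The 4 rule genes are in none of these counts. Of the 277 genes higher in A1 and A2, 226 could be compared in all 4 sets: 90 were higher and 36 lower in both B1 and B2, and their median log2 ratio was 1.65 in ending A and 0.25 in ending B. Of all 6451 genes, 22.3% were higher and 30.1% lower in both B1 and B2. The median log2 ratio of all genes was -0.10 in A1 and A2 and -0.04 in B1 and B2. The description below leads with A1 and A2, a choice made after these values were seen.

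By the rule for naming genes, Ccl11 stood first among genes higher in all 4 sets. Ccl11 encodes eotaxin, the chemokine that draws eosinophils (chr11:82057832-82062955). It was at 965 CPM in the chosen cells of A1, 903 in A2, 488 in B1 and 594 in B2, against 55.7, 46.4, 175 and 179 in the remaining cells. The chosen cells were the higher in each set, by a log2 ratio of 4.11, 4.28, 1.48 and 1.73. Cd200, a surface ligand that restrains myeloid cells, was at 38.9, 67.8, 91.4 and 86.4 CPM against 10.1, 6.97, 22.6 and 25.2. Irf8, a transcription factor of the interferon response, was at 63.6, 70.4, 66.0 and 91.8 CPM against 21.1, 17.8, 22.2 and 19.1. Stc2, a secreted glycoprotein, was at 101, 121, 40.6 and 59.4 CPM against 19.1, 21.4, 18.46 and 17.4. These 4 genes, with Sept4 and Slco3a1 among the 20 named, were over 2-fold in each set, and their ratios were larger in A than in B, except for Irf8, where B2 gave the largest (2.26), and Cd200, where A1 (1.95) lay below B1 (2.02).

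Other genes of the same rule were higher in each set but under 2-fold in at least 1 set of ending B. Col6a4 was at 959 CPM in A1 and 966 in A2 against 148 and 115, and at 564 and 610 in B1 and B2 against 345 and 357. Rarres2, the precursor of the chemoattractant chemerin, was at 550 and 638 CPM in A1 and A2 against 107 and 113. Plac8, a small cytoplasmic protein, was at 1097 and 1396 CPM against 225 and 235. Aldh1a3, an enzyme of retinoic acid synthesis, was at 211 and 217 CPM against 32.1 and 31.4. Lifr, the receptor for leukemia inhibitory factor, was at 96.9 and 95.4 CPM against 16.0 and 15.1. In B1 and B2 the log2 ratios of these 4 genes ran from 0.19 for Plac8 to 1.29 for Aldh1a3, below their values in A1 and A2.

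Among the 12 genes named as lower, Wnt5a, Rspo3, Gas1, Rgs5, Cd24a, Cd81 and Cxcl13 were over 2-fold lower in each set, on 0 to 14 UMIs in the chosen cells of each B set. Wnt5a, a WNT ligand of gut elongation, was at 31.8 CPM in the chosen cells of A1, 25.9 in A2, 61.0 in B1 and 21.6 in B2, against 124, 132, 135 and 134. Rspo3, which strengthens WNT signals, was at 17.0, 21.4, 15.2 and 10.8 CPM against 69.9, 75.2, 55.8 and 54.9. Cd81, a tetraspanin used as a marker of submucosal fibroblasts, was at 32.5, 39.2, 71.1 and 21.6 CPM against 173, 204, 148 and 148. Cxcl13, a chemokine for B cells and lymphoid tissue inducer cells, differed more in ending B: it was at 80.6 and 55.3 CPM in A1 and A2 against 172 and 164, and at 15.2 and 5.40 in B1 and B2 (3 and 1 UMIs) against 347 and 354. Ogn, a small proteoglycan, was likewise lower mostly in ending B, with log2 ratios of -0.51 and -0.49 in A1 and A2 and of -2.60 and, with a floor of 3 counts, -4.16 in B1 and B2.

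**Figure D3:**
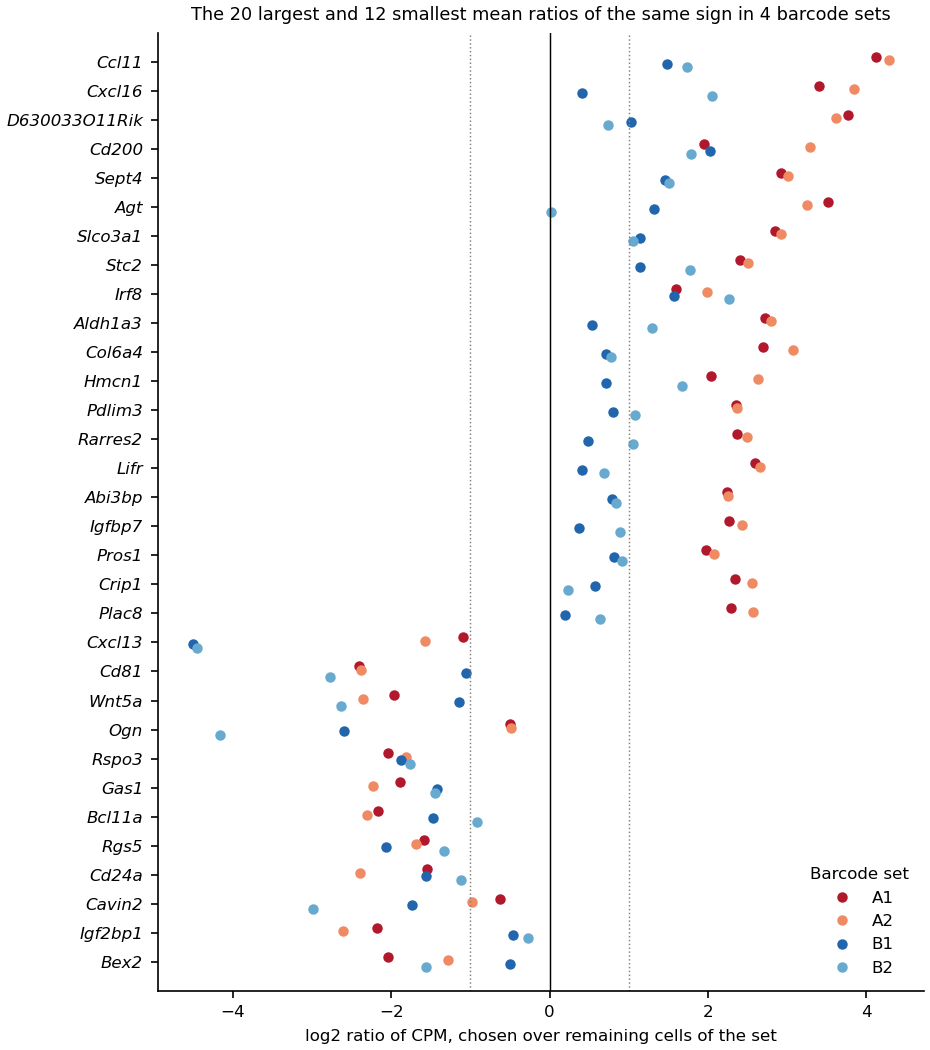
Log2 ratio of CPM in chosen over remaining cells (horizontal axis) for the 20 largest and 12 smallest mean ratios of the same sign in sets A1, A2, B1 and B2 (points; dotted lines mark 2-fold; a class with fewer than 3 counts on the lower side is set to 3). Points of A1 and A2 lie beyond those of B1 and B2 for most higher genes, as for Ccl11 at 4.11 and 4.28 against 1.48 and 1.73, while Cxcl13 and Ogn lie lower in ending B.

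All measured collagen VI chains were higher in the chosen cells of A1 and A2. Col6a1 and Col6a2 encode the alpha-1 and alpha-2 chains that every collagen VI molecule holds. Col6a1 was at 2003 CPM in A1 and 2220 in A2 against 575 and 557, a log2 ratio over both sets of 1.89 (1.85 to 1.93). Col6a2 was at 2288 and 2209 CPM against 543 and 484, a ratio of 2.13 (2.09 to 2.17). Col6a3, which encodes the common alpha-3 chain, was at 460 and 522 CPM against 164 and 149, a ratio of 1.64 (1.55 to 1.72). Col6a4 had a ratio of 2.87 (2.80 to 2.93); Col6a4 is the neighbour of Col6a5 and may share reads with it. So 4 of 4 chains outside the rule were over 2-fold higher in both sets, beside 3.89% of all genes. In B1 and B2 the ratios of Col6a1, Col6a2 and Col6a4 ran from 0.37 to 0.77 and those of Col6a3 were -0.11 and -0.49.

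Other matrix genes were higher in part, and their counts stand beside 3.89% of all genes higher and 1.64% lower in both A sets. Of 11 fibrillar collagen and crosslinking genes at 20 CPM, 4 were over 2-fold higher in both A sets and 0 lower, with a median log2 ratio of 0.59. They were Col1a1 at 1.20 (1.17 to 1.23), Col1a2 at 1.23, Col5a1 at 1.26 and Pcolce, an enhancer of procollagen processing, at 1.12. Col3a1, at 3540 CPM in A1 and 3048 in A2, had a ratio of only 0.42. Of 7 other collagens, 4 were higher, led by the basement membrane chains Col4a1 (1.69) and Col4a2 (1.51), with Col12a1 and Col16a1. Of 14 small proteoglycans and elastic fibre genes, 3 were higher: Dcn (decorin) at 1.52, Bgn (biglycan) at 2.13 and Eln (elastin) at 1.33. Of 9 protease inhibitors of the list that holds Wfdc1, 2 were higher, Serping1 (1.23), an inhibitor of complement, and Serpinf1 (1.25), and 0 lower. In ending B several of these stood the other way. Col1a1 was at 1341 CPM in B1 and 1625 in B2 against 2484 and 2805, and Dcn had log2 ratios of -1.30 and -1.05 there; Col5a1, at 0.11 and -0.19, did not follow them.

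Lepr signals through JAK and STAT proteins, and of 17 other genes of that list at 20 CPM, 6 were over 2-fold higher in A1 and A2, beside 3.89% of all genes, and 0 lower, with a median of 0.47. Lifr, the receptor for leukemia inhibitory factor and, with Il6st, part of a receptor for oncostatin M, had a log2 ratio of 2.63 (2.42 to 2.83). Osmr, the other oncostatin M receptor chain, was at 24.0 and 24.1 CPM against 3.47 and 2.31, a ratio of 3.05 (2.60 to 3.48). The feedback inhibitors Socs3, Socs2 and Cish had ratios of 1.64 (1.52 to 1.76), 1.99 (1.80 to 2.17) and 1.21 (0.82 to 1.58). Stat3, the main STAT of leptin signals, was at 71.4 and 81.1 CPM against 42.3 and 40.1 and passed 2-fold only in A2. Jak1 (0.27) and Il6st (0.52), the shared signal chain, lay under 2-fold in both sets, as did Leprot, the gene next to Lepr (0.48). Within the chosen cells thinned to 2000 UMIs, the 51 with a Lepr UMI held Socs3 at 176 CPM and the 218 without at 261 CPM, on 18 and 114 UMIs. Osmr and Lifr had 1 and 7 UMIs in the cells with Lepr, too few to compare.

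Chemokines formed a second group, beside 3.89% of all genes higher and 1.64% lower in both A sets. Of 10 chemokine genes at 20 CPM, 6 were over 2-fold higher in both A sets and 1, Cxcl13, over 2-fold lower, with a median log2 ratio of 2.08. This list, the interferon, fetal growth and lamina propria lists below were made after values had been seen. Beside Ccl11, Cxcl16, a membrane-bound chemokine for T and natural killer cells, was at 114 CPM in A1 and 151 in A2 against 10.8 and 10.5, a ratio of 3.61 (3.41 to 3.80). The neutrophil chemokines Cxcl1 and Cxcl2 had ratios of 3.15 (2.93 to 3.36) and 3.59 (3.26 to 3.91), on 257 and 126 UMIs in the chosen cells. Cxcl10, an interferon-induced chemokine for T cells, was at 134 and 122 CPM against 26.7 and 15.1, a ratio of 2.61 (2.43 to 2.79). Cxcl12, the chemokine that retains blood progenitors in bone marrow stroma, was at 342 and 306 CPM against 113 and 117, a ratio of 1.59 in A1 and 1.39 in A2. In ending B, Cxcl12 was at 117 and 91.8 CPM in the chosen cells of B1 and B2 against 117 and 121, and Cxcl1 had only 2 and 3 UMIs there. Cxcl2 had ratios of 1.30 and 0.92, on 7 and 6 UMIs.

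Of 17 interferon-induced genes at 20 CPM, 15 were over 2-fold higher in A1 and A2 and 0 lower. Among all genes 3.89% were higher and 1.64% lower. The median log2 ratio of the 17 genes was 1.79. Ifi27l2a, a mitochondrial interferon-induced gene, was at 242 CPM in A1 and 270 in A2 against 20.5 and 16.4, a ratio of 3.78 (3.64 to 3.92). Isg15, a ubiquitin-like modifier, was at 17.0 CPM in A1 and 66.9 in A2 against 2.80 and 3.90, so the chosen cells of A2 were well above those of A1. Psmb8 and Tap1, which make and carry peptides for class I antigen presentation, had ratios of 3.29 and 2.11, and B2m had 1.14. Iigp1 and Gbp7, interferon-induced GTPases, had 2.91 (2.71 to 3.11) and 2.47 (2.20 to 2.74). In ending B most of these genes had 3 UMIs or fewer in the chosen cells and gave no common direction: Ifi27l2a was at 0 and 5.40 CPM in B1 and B2 against 21.7 and 13.6, Psmb8 was at 0 and 43.2 CPM against 7.52 and 6.97, and Irf8 was higher in both, as given above. The immediate early and heat shock genes, which are known to change with dissociation of tissue, moved with these groups: 3 of 14 were over 2-fold higher in A1 and A2, with a median of 0.92, namely Hspa1a at 2.05, Hspa1b at 1.54 and Zfp36, at 1.38 in A1 and 1.64 in A2; Fos had 0.84. Their part in the chemokine and interferon values was not tested.

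Promoter sequence was read for these genes because they stood together. The window ran from 250 bases before to 50 after each start in RefSeq (GRCm38.p6), and 2 motifs of 10 bases were searched on both strands: an interferon-like element (GAAA, 2 bases of any kind, GAAA) and an NF-kB-like element (GGG, 2 bases of any kind, TTTCC). B2m held both. Of 12 higher interferon-induced genes with a promoter in the table, 7 held the first motif (B2m, Bst2, Cxcl10, Gbp7, Ifih1, Ifitm3 and Isg15), beside 3.44% of all 32851 promoters. Of 4 higher chemokines with a promoter, Cxcl1 and Cxcl2 held the second, beside 1.63% of all promoters. Part of 5 of these promoters is shown 5′ to 3′ on the gene's own strand, with the match, or overlapping matches, in capitals; in Cxcl1 the first match and in Gbp7 the only one are on the opposite strand.
Cxcl1, chr5:90891131-90891208, plus strand: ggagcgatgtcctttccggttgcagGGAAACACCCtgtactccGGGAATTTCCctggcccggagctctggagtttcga
Cxcl2, chr5:90903777-90903855, plus strand: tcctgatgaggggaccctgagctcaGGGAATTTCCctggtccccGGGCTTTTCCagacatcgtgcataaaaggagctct
Cxcl10, chr5:92349068-92349127, minus strand: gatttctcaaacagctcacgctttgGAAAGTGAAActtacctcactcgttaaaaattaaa
Isg15, chr4:156200850-156200921, minus strand: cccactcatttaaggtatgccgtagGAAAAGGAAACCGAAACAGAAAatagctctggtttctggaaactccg
Gbp7, chr3:142530258-142530317, plus strand: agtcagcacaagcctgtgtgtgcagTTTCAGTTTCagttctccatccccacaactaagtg
Cxcl1 and Cxcl2, which lie close together on chromosome 5, each hold 2 matches within 97 bases of the start, and Isg15 holds 3 overlapping ones within 78 bases. A match is a run of letters and not a measured binding site. The interferon list was made of genes known for that response, which often carry such elements, so its share of matches says nothing about the chosen cells. The chemokine list was made after values had been seen and its share rests on 2 of 4 genes. Nothing about the chosen cells is read from it either.

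Stromal niche factors, the secreted and surface proteins by which stromal cells hold other cells, were largely higher in A1 and A2: 7 of 13 at 20 CPM were over 2-fold higher and 1 lower, with a median log2 ratio of 1.24. Counts in this paragraph stand beside 3.89% of all genes higher and 1.64% lower in both A sets. The 7 hold Ccl11, Cxcl1 and Cxcl12, given above. Vcam1, an adhesion molecule for white blood cells, was at 151 CPM in A1 and 107 in A2 against 31.6 and 24.3, a ratio of 2.23 (2.06 to 2.40). Kitl, the ligand of the Kit receptor, had 1.48 (1.33 to 1.63), and Il33, an alarm cytokine, had 1.24 (1.08 to 1.40). Vegfc, a growth factor of lymphatic vessels, had 1.29 (1.02 to 1.55). Of 8 peptide and hormone receptors, a separate list, 2 were higher: Ptger4, a prostaglandin E2 receptor, was at 39.6 and 34.8 CPM against 3.71 and 3.79, a ratio of 3.32 (2.96 to 3.68), and Ednrb, an endothelin receptor, had 1.19. Of the lamina propria fibroblast list, 6 of 7 were higher, with Adamdec1, a secreted metalloproteinase of gut stroma, at 3286 and 3815 CPM against 751 and 722. Fabp5 was the exception, at -0.88. In ending B, Adamdec1 was high in every cell class, at 2768 and 2970 CPM in the chosen cells of B1 and B2 and 2080 and 2121 in the remaining cells.

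The insulin-like growth factor axis split. Igf1 was at 338 CPM in A1 and 355 in A2 against 76.2 and 73.8, log2 ratios of 2.15 and 2.27, and Igfbp7 and Igfbp3, which bind these factors, had 2.34 (2.28 to 2.41) and 2.05 (1.88 to 2.22). Igf2, the fetal factor, stood the other way at 102 and 109 CPM against 409 and 393, a ratio of -1.94 (-2.12 to -1.76). Igfbp2 had -2.19 (-2.70 to -1.72), and H19, the imprinted partner of Igf2, had -1.23. In all, 3 of 10 genes of the axis were higher, 3 lower and 4 neither, beside 3.89% of all genes higher. Of 14 genes of a fetal growth list, 0 were higher and 6 lower, beside 1.64% of all genes lower, with a median of -0.97. Hmga2, a chromatin protein of proliferating fetal tissue, was at 78.5 and 74.9 CPM against 430 and 472, a ratio of -2.55 (-2.76 to -2.35), and Igf2bp1, which binds fetal mRNAs, had -2.35 (-2.79 to -1.95). Peg3 (0.18), Mest (-0.15) and Plagl1 (-0.15), also imprinted, lay near the median of all genes. In ending B, Hmga2 had log2 ratios of 0.42 in B1 and -0.10 in B2, and Igf1 had 0.02 and 0.19, while Igf2 had 3 and 0 UMIs.

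Counts of the signalling lists stand beside 3.89% of all genes higher and 1.64% lower in both A sets. In the WNT pathway the 2 ligands at 20 CPM went apart. Wnt4 was at 57.3 CPM in A1 and 58.0 in A2 against 6.17 and 7.08, log2 ratios of 3.22 and 3.03, and Wnt5a had -2.13 (-2.48 to -1.80). Of 5 WNT modulators, Rspo3 was lower at -1.94 (-2.38 to -1.53), 0 were higher, and the most abundant, Sfrp1, had -0.25. Of the BMP genes, 0 of 4 ligands passed 2-fold in both sets, with Bmp4, the most abundant, at 445 and 420 CPM against 388 and 367. Of 8 BMP receptors and targets only Id1 passed, at -1.39 (-1.67 to -1.12). Of 5 BMP and activin antagonists, Nbl1 was higher at 1.39 and Fst (follistatin) lower, at 8 UMIs in all chosen cells of A1 and A2, a ratio of -3.51 (-4.73 to -2.53). Inhba, which encodes an activin subunit that follistatin binds, was at 39.6 and 55.3 CPM (118 UMIs), a ratio of 2.99 (2.67 to 3.29). With Ltbp4, which holds latent TGF-beta in the matrix (1.69), it made 2 of 9 TGF-beta genes higher. Of 5 FGF and 3 PDGF genes, 0 passed 2-fold in both sets. Of 11 Hedgehog genes, Gas1, a coreceptor, was lower at -2.03 (-2.36 to -1.72) and 0 were higher: Ptch1, the receptor and a target, had 0.78 and Gli1 had 0.52.

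**Figure D4:**
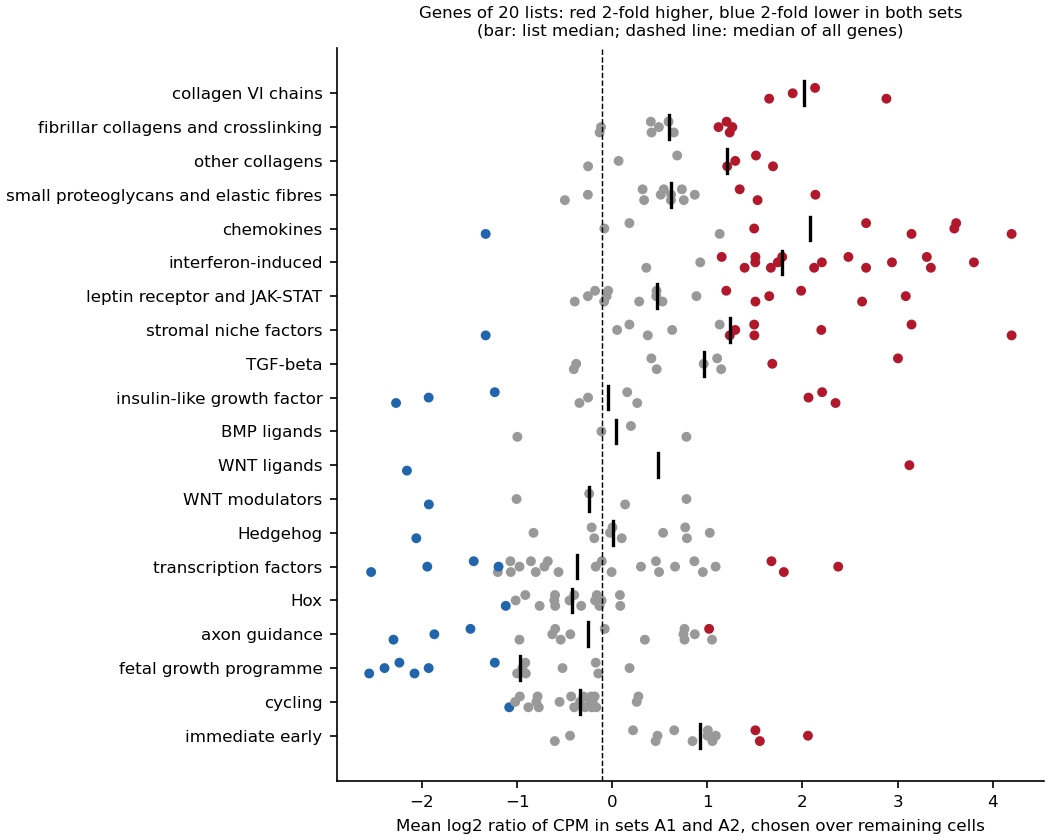
Mean log2 ratio of CPM in chosen over remaining cells of sets A1 and A2 (horizontal axis) for each gene at 20 CPM or more in 20 lists (points; red over 2-fold higher and blue over 2-fold lower in both sets; black bars are list medians and the dashed line is the median of all genes). Collagen VI, chemokine and interferon lists had medians of 2.02, 2.08 and 1.79, and the fetal growth list had -0.97, where all genes had -0.10.

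The counts in the lists that follow stand beside 3.89% of all genes higher and 1.64% lower in both A sets. Among 26 transcription factors at 20 CPM, 3 were over 2-fold higher and 4 lower in A1 and A2, with a median of -0.37. Sox9 had a log2 ratio of 2.35 (1.95 to 2.74), Tbx2 1.83 and Klf2, a factor of shear stress and inflammation, 1.67. Twist1, a factor of early mesenchyme, was at 11 UMIs in all chosen cells, a ratio of -2.49 (-3.49 to -1.64), and Hand2, Zfhx4 and Sox4 had -1.93, -1.44 and -1.18. The gut factors Foxf1 (-0.23) and Nkx2-3 (0.95) did not pass 2-fold in both sets. Of 16 Hox genes, 0 were higher and 1, Hoxc5 (-1.11), lower, with a median of -0.42. Of 16 axon guidance genes, Slit3 was higher (1.02) and Sema3a (-2.29), Epha4 (-1.80) and Nrp2 (-1.49) lower. Of 18 adhesion and matrix contact genes, 5 were higher, among them Itga4, a chain of the receptor for Vcam1 (2.25), and Ncam1 (1.44), and 2 lower: Vcan (versican), at 92.6 and 107 CPM against 430 and 457, and Has2, which makes hyaluronan, on 21 UMIs. Of 7 retinoic acid genes, Aldh1a3 was higher at 2.75 (2.61 to 2.89) and Aldh1a1 lower at -1.49. Of 6 lipid and fat cell genes, Apoe (2.07), Cebpd (1.76) and Cebpb (1.65) were higher.

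Marker lists of other mesenchymal cells were read in the same way. Of 9 smooth muscle markers, 8 lay under 2-fold and Myocd, the master factor of smooth muscle, was higher at 1.74 on 83 UMIs; the summed list was at 1530 and 1711 CPM in the chosen cells of A1 and A2 and at 1727 and 1772 in the remaining cells. Of 6 pericyte markers, Rgs5 was lower at -1.63 (-1.88 to -1.39) and 0 were higher. Of 6 adventitial fibroblast markers, Cd81 was lower at -2.41 (-2.72 to -2.11), Ogn, Dpt and Mgp had -0.50, -0.41 and -0.22, and Aspn and Gsn had 0.61 and 0.66. Of 8 markers of Pdgfra-high mesenchyme, Wnt4 was higher and Wnt5a lower, Pdgfra had -0.57 (-0.75 to -0.39) and Foxl1, a factor of subepithelial cells, 0.93 in A1 and 1.12 in A2. The red blood cell list was at 3642 CPM in the chosen cells of B1 and 934 in B2 against 1814 and 1805 in the remaining cells, and at 60.1 to 66.0 in A1 and A2; its part in the values of ending B was not tested.

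Levels were also read across the rule score within A1 and A2. For the genes given below except Rspo3, cells with rule UMIs under the cut lay between cells with none and the chosen cells. Ccl11 was at 37.6 CPM in the 1991 cells of A1 without a rule UMI, 189 in the 325 under the cut, 854 in the lower and 1080 in the upper part of the chosen cells, split at their median score; in A2 it was at 25.2, 194, 679 and 1117. Plac8 stepped up likewise, from 190 and 194 CPM to 1313 and 1513. Adamdec1, at 587 and 559 CPM in cells with none, was at 1953 and 1860.5 under the cut, and in A1 the lower and upper parts were alike at 3258 and 3315. Hmga2 went from 456 and 506 CPM to 240 and 231 under the cut and to 76.8 and 75.0 in the lower part of the chosen cells. Wnt5a stood at 92.0 and 91.8 CPM under the cut against 41.9 and 18.3 in the lower part. Rspo3 was at 70.7 and 75.1 CPM in cells with none, 64.2 and 75.9 under the cut and 19.6 and 20.1 in the lower part. Median depth changed along the bands too, from 12927 UMIs without rule UMIs to 8410 in the upper part in A1; its part in these values was not tested, and CPM divide by depth.

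**Figure D5:**
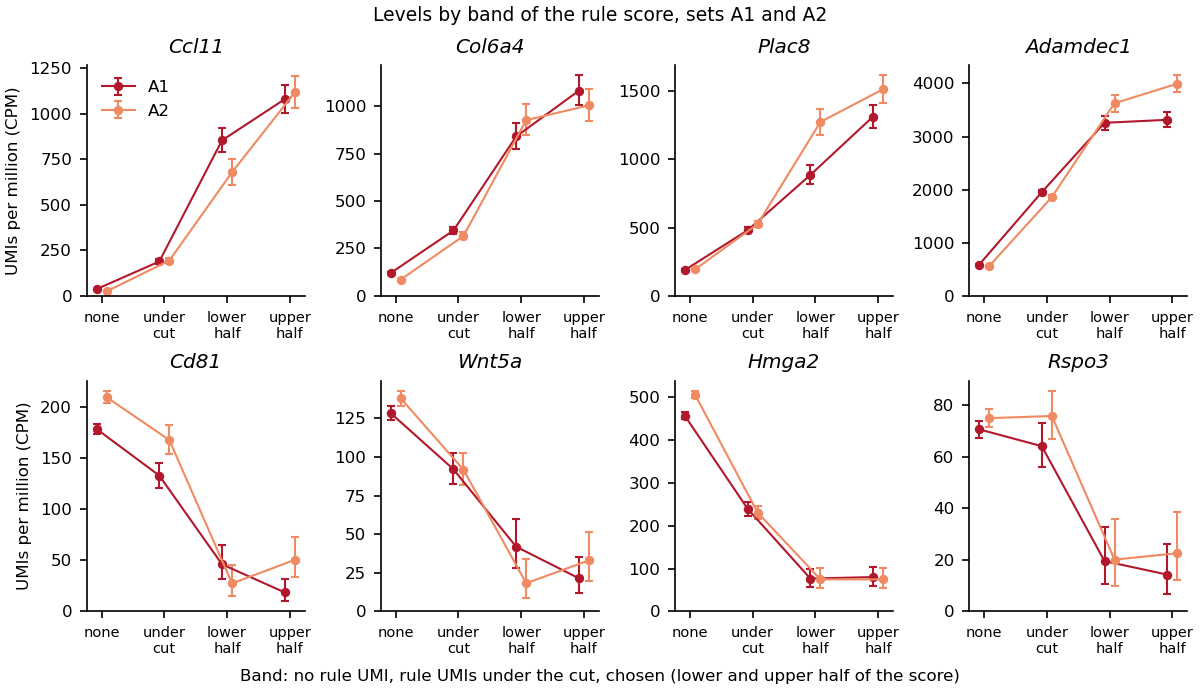
CPM of 8 genes (vertical axes, each from 0) in cells of sets A1 and A2 with no rule UMI, with rule UMIs under the cut, and in the lower and upper part of the chosen cells; bars are exact Poisson 95% intervals of the summed counts. Ccl11, Col6a4, Plac8 and Adamdec1 are higher in each band up to the lower part of the chosen cells, and Cd81, Wnt5a and Hmga2 are lower. Rspo3 in A2 is not lower under the cut, at 75.9 CPM against 75.1 with no rule UMI.

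Cycling was compared at 2000 UMIs per cell. A UMI of Mki67 or Top2a, genes of dividing cells, was found in 36.1% (30.3 to 42.1) of the 269 chosen cells of A1 and A2 and in 46.5% (45.0 to 48.0) of 4285 remaining cells; without thinning the shares were 54.5% and 55.7% in the chosen cells of A1 and A2 against 69.5% and 71.3%. By gene, thinned Top2a was found in 28.6% and 27.8% of the chosen cells of A1 and A2 against 39.3% and 38.7%. Thinned Mki67 was closer, in 27.3% and 24.3% against 29.3% and 29.5%. In B1 and B2 the thinned shares for either gene were 39.5% (28.4 to 51.4) of 76 cells and 31.3% (30.0 to 32.7) of 4645. The interval of the chosen cells thus covered that of the remaining cells. Of 21 cycling genes, 1 (Rrm2, at -1.08) was over 2-fold lower in both A sets and 0 were higher, with a median of -0.34. Among all genes 1.64% were lower and 3.89% higher, with a median of -0.10, so nothing is read from the count. The replication genes of the list (Mcm2, Mcm3, Mcm5, Mcm6 and Mcm7) lay between -0.99 and -0.77, whereas Mki67 had 0.31, so the list was not uniform.

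Sex was read only from transcripts, as Xist or Y-linked UMIs, and cells of both kinds were found. Of the chosen cells of A1 and A2, 9.09% and 12.2% held neither and 9.74% and 7.83% held both. The part of depth in these shares was not tested. Cells with Xist and no Y-linked UMI made up 62.3% of the chosen cells in A1 and 48.7% in A2, against 30.2% and 29.3% of the remaining cells, and 94.9% and 100% in B1 and B2 against 80.8% and 80.2%. Levels were also read within each class, among cells of A1 and A2 with Xist only (152 chosen) and with Y-linked UMIs only (65 chosen). These are mostly the cells on which the genes were called, so the values are a description. Ccl11 had log2 ratios of 3.70 and 4.54 in these classes, Col6a4 2.62 and 2.96, and Wnt5a -2.11 and -1.93. Whether embryos, ages or segments differ in the share of such cells cannot be told apart from these values.

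The same top 5% rule was applied with 4 other gene sets of the intestinal mesenchyme. In ending A, 25 of the 288 chosen cells (8.68%) were also among the 278 cells rich in Klhl6, Tifa and Kcnk2 (8.99% of those, where these cells are 4.84% of all). Cells rich in Dpt, Aspn and Mgp, 5.02% of all, shared 4 (1.39% of each set of 288), but with the top 10% taken for both scores 104 were shared (18.1% of each), where those cells are 10.0% of all, so the overlap lay below that share at 5% and above it at 10%. Cells rich in Sptssb, Rspo2 and Dab1 (4.91% of all), or in Saa1, Gpbar1 and Kcnd3 (3.99% of all), shared none at 5%. At the top 10% they shared 19 cells (3.30% of the chosen cells, beside 8.99% of all) and 1 cell (0.174%, beside 4.72%). The cells of Dpt, Aspn and Mgp had Igf1 at 321 and 351 CPM in A1 and A2 (338 and 355 in the chosen cells here) and Col6a1 at 1337 and 1364 (2003 and 2220). They differed in Ccl11, at 41.7 and 20.6 CPM (965 and 903), in Col6a4, at 45.4 and 29.2 CPM (959 and 966), and in Cd81, at 337 and 415 CPM (32.5 and 39.2). The cells of Klhl6, Tifa and Kcnk2 had intermediate levels of Adamdec1 (1690 and 1592 CPM), of Ccl11 (149 and 123 CPM) and of Col6a4 (246 and 204 CPM). Lepr (14.3 and 16.7 CPM) and Wfdc1 (10.9 and 6.84 CPM) were intermediate in them too, so neither gene was confined to the chosen cells.

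Sets A3 and B3 were outside the comparison. The 19 chosen cells of A3 had Col6a5 at 1404 CPM and Ccl11 at 1038 against 207 in the remaining cells of A3, but Lepr at 0. They had Pdgfra at 1674 CPM against 934, Adamdec1 at 10988 against 9764 and Bmp2 at 375 against 270. The chosen cells of A3 were thus Pdgfra-high, unlike those of A1 and A2 at 117 and 87.4 CPM, and Vcam1 was at 1 UMI. In B3, Ccl11 was at 55.7 CPM in the 23 chosen cells (5 UMIs) against 160 in the remaining cells, the opposite of B1 and B2.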

How the data were processed

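Single-cell RNA sequencing (10x 3′ chemistry with MULTI-seq barcodes) covered 6 pooled samples. The deposited matrix holds raw UMI counts of 24568 genes in 13127 cells, per the file headers and its whole-number values. Cell Ranger 2.1.1, Seurat and build mm10 are named in the submitters' processing notes, without settings. The members and gene lists were chosen with earlier results of these data known, and 5 lists and the lead given to sets A1 and A2 after values had been seen. Levels are the summed counts of a class in a set over its total (CPM). Genes needed 20 CPM in the higher class and counts in each ending compared, and the endings list partly different symbols. The lower class was raised to 3 counts where it had fewer, and no ratio was given where the higher class had 3 or fewer. Intervals (95%) are exact: conditional binomial for ratios and Clopper-Pearson for shares (scipy 1.17.1). They cover counting error only. Named genes are the 20 largest and 12 smallest mean log2 ratios of the same sign in 4 sets at 50 CPM or more, the extremes and most abundant genes of each list, collagen VI chains and the Lepr list; others named for A1 and A2 were chosen after their values were seen. Clusters used scanpy 1.11.5 and leidenalg 0.10.2 (2000 variable genes, 30 components, 15 neighbours, resolution 1). Doublets called by Scrublet were kept. The fold step was checked on simulated counts. 1 gene that the list counts include is not reported here. Alternatives changed the share taken, the UMI minimum, the comparison cells, filters, doublets, depth and sets.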

Additional observations from a re-analysis of the deposited data

How the results depend on the processing

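Over the 4 sets, 7 genes were higher and 9 lower. The higher count was 38 with suffix -3 cells added, 36 without set B1, 27 without B2, 277 in A1 and A2 alone, 35 in B1 and B2 alone and 0 with only cells free of cycling UMIs. The lower count was 5 at the top 10%, 2 with at least 3 rule UMIs, 4 after thinning, 3 with only cells free of cycling UMIs, 117 in A1 and A2 alone and 42 in B1 and B2 alone. Here a cycling UMI is one of any of the 21 cycling genes, not only of Mki67 or Top2a, which left 8 chosen cells in A1 and A2, so fewer cells entered. With these cells, 28 genes were higher and 15 lower in A1 and A2, and 13 of the 277 and 3 of the 117 were called again. In A1 and A2 the counts stayed between 238 and 319 higher and 109 and 136 lower under the other alternatives that kept the 20 CPM minimum, and with a minimum of 50 CPM they were 166 and 69, with none 571 and 228. The genes changed more than the counts: of the 277 higher and 117 lower genes, 186 and 58 were called again after thinning and 235 and 78 at the top 2%. At the top 2% the left-out Col6a5 and Col6a6 had log2 ratios of 3.85 and 2.18. At the top 10% Col6a6, Wfdc1 and Lepr had 4.05, 5.66 and 3.93. Col6a5 had 3.91 with at least 3 rule UMIs. By mean per-cell CPM, Col6a5, Col6a6, Wfdc1 and Lepr had 3.54, 2.09, 4.53 and 3.15, and with only cells free of cycling UMIs Col6a5, Wfdc1 and Lepr had 3.21, 3.25 and 0.82 (-2.41 to 3.05). The cycling share of chosen cells was 25.3% at 1000 UMIs and 28.3% at the top 2%, and that of remaining cells 36.0% at 1000 and 51.9% at 3000 UMIs. The share of chosen cells in 2 clusters in ending A was 91.0% at resolution 0.5, 68.1% at resolution 2, 90.3% without called doublets, 93.0% at the top 2% and 66.8% at the top 10%, and in ending B 65.0% at resolution 0.5. For these the cause was not tested. The other 50 values for these results stayed within their limits. Of 176 values for named genes and overlaps with other scores, 12 moved. No named gene with a value changed sign. Only 8 of the 32 had a value with only cells free of cycling UMIs, where Cd81 went from -2.16 to -0.61, and 24 had one after thinning. At the top 10% the overlap with Dpt, Aspn and Mgp cells in ending A turned from below to above their share of all cells. No paired analysis was possible because lanes share only a number and cells cannot be assigned to samples.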
